A study of Mus musculus with 4 samples.

Results

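The genes described here encode the protein shell of the cornified skin cell. They were chosen by name: every Lce and Sprr gene, plus Lor, Ivl, Flg, Flg2, Hrnr, Rptn, Crnn, Tchh, Tchhl1 and Cnfn. The rule found 48 genes of 45699, in 55 rows of the count table, because 8 identifiers carried the symbol Flg and were summed. The cornified envelope forms beneath the membrane of dying keratinocytes, where transglutaminases cross-link loricrin, involucrin, the late cornified envelope (LCE) proteins and the small proline-rich (SPRR) proteins. Fused S100 proteins such as filaggrin join an S100 calcium-binding domain to a long repeat region and bind keratin filaments, in epidermis or in hair and nail. In background knowledge Lce1 genes, Lor and Flg mark normal differentiation, whereas Lce3, Sprr1 and Sprr2 genes are known for their induction when the barrier is disturbed.

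RNA was sequenced from whole regenerating mouse digit tips 14 days after amputation, with 1 library per genotype. The groups were wildtype, Sp6 cKO (conditional knockout), Sp8 cKO and Sp6+Sp8 cKO, where Sp6 and Sp8 are zinc-finger transcription factors of the epidermis. The cKO mice were injected with 75 mg/kg of tamoxifen on each of 5 days and rested for 5 days before amputation. Digit tips were cut off at the distal joint and ground whole, so the RNA came from all cell types of the tip. The Cre driver, the strain, the age, the number of animals per library and whether wildtype mice received tamoxifen are not stated in the labels. The wildtype library carried batch 3 and the 3 cKO libraries batch 1, so against wildtype the effects of batch and knockout cannot be told apart, and comparisons among cKO libraries lie within batch 1. Where 4 values follow each other, they stand for wildtype, Sp6 cKO, Sp8 cKO, then Sp6+Sp8 cKO, also called the double knockout.

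Total counts ranged from 12588522 in Sp8 cKO to 21834898 in wildtype. Sp6 stood at 97.7 counts per 1000000 (CPM, scaled by TMM library size) in wildtype and 29.2, 95.6 and 57.8 CPM in the Sp6, Sp8 and double knockouts, and Sp8 at 63.9, 66.1, 16.8 and 13.4 CPM, so the double knockout library carried more Sp6 transcripts than the Sp6 cKO library. The basal keratinocyte list summed to between 6011 and 6628 CPM, the suprabasal list to between 20471 and 28187 CPM and the bone list to between 6496 and 8265 CPM. No gene of these lists was at 0, so their transcripts were present in each library. The bone sum was mostly Col1a1, at 7860, 8095, 7775 and 6332 CPM, and does not show that bone content was even. Ibsp was at 75.3, 145.6, 171.8 and 151.4 CPM, Bglap at 33.4, 21.2, 18.3 and 11.2, and Sost at 4.65, 3.33, 4.68 and 1.88. With no replicates nothing was tested against variation between animals, and intervals cover counting error only. A gene is called higher or lower when its log2 ratio was at least 1 in size, it reached 1 CPM in at least 1 of the 2 libraries, and the exact 95% Clopper-Pearson interval of the ratio excluded 1.

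Of the 48 genes, 47 lie on chromosome 3 of GRCm38 between 92080271 and 93471980, the epidermal differentiation complex, and Cnfn lies on chromosome 7. The Sprr2 genes form a block from 92215799 to 92433925, the Lce1 genes apart from Lce1m run from 92646535 to 92851286, Lce3a to Lce3f from 92925287 to 92993426, and the fused S100 genes from 93144787 to 93471980. Together the members took 1.34% of the counts in wildtype and 1.40%, 1.30% and 1.08% in the Sp6, Sp8 and double knockouts. Measured members, those with 1 CPM in at least 1 library, numbered 46, and Sprr3 and the pseudogene Sprr2c-ps were not measured. Sprr3, an SPRR gene of oral and oesophageal epithelium, had 4 counts in wildtype and 2, 0 and 1 in the cKO libraries. Sprr2c-ps had 1 count in wildtype and 0 elsewhere.

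Promoter sequences are shown for Sprr2d and Sprr2i, which were higher in both libraries with an Sp6 deletion, for Sprr2h, a neighbour within the limits of the size rule, and for Lce3b, which was higher in all 3 cKO libraries. Sprr2h was chosen after its values were seen. Each run is the 250 bases before the RefSeq start of the gene on the plus strand of GRCm38.p6, and lies at chr3:92338890-92339139, chr3:92407741-92407990, chr3:92385435-92385684 and chr3:92932729-92932978 in the order printed. Capitals mark the AP-1 motif TGANTCA and the TATA box TATAAA.
Sprr2d: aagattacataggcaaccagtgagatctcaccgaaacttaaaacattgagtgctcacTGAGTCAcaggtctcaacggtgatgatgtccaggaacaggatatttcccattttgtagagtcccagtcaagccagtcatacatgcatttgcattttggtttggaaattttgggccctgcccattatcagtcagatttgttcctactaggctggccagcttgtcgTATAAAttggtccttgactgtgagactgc
Sprr2i: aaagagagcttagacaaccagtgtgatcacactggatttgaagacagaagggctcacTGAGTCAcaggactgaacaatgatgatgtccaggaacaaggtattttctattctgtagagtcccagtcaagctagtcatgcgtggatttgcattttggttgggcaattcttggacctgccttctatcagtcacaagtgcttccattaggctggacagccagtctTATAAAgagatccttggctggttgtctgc
Sprr2h: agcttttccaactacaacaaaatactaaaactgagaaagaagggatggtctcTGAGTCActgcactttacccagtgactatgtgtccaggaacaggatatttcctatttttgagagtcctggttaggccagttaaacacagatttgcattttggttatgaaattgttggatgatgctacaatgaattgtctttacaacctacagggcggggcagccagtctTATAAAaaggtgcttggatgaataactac
Lce3b: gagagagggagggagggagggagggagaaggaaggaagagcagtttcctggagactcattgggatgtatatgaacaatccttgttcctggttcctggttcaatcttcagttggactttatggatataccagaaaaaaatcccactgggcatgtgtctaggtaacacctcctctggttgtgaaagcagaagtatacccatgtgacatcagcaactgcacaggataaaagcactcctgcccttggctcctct
The 3 Sprr2 runs carry both motifs at nearly the same places, with TGAGTCA starting 193, 193 and 198 bases before the start and TATAAA 29 bases before it. Position by position, Sprr2d and Sprr2i were 69.6% identical and Sprr2d and Sprr2h 42.8%, so the shared places need not be independent. Sprr2b has the same strings at 195 and 29 bases, but its run is not printed, since its RefSeq start lies 85 bases downstream of the GENCODE M21 start.

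Promoters were found for 44 members, and Lce1f, Sprr2c-ps, Sprr2g and Sprr2j-ps had no entry. The RefSeq start was that of the GENCODE M21 gene for 33 of the 44, and lay over 50 bases from it for 3, Sprr2a2, Sprr2a3 and Sprr2b. Motifs were searched on both strands of the same 250 bases. TGANTCA stood in 7 of 10 Sprr2 promoters (70%), both Sprr1 promoters and 5 of 7 fused S100 promoters (71.4%), against 6.75% of all 32851 promoters in the table, and in 0 of 13 Lce1 and 0 of 6 Lce3 promoters. TATAAA stood in 7 of 10 Sprr2 promoters, in each at 29 bases before the start, and in 12.4% of all promoters. Some Sprr2 promoters resemble each other. Compared position by position without gaps, Sprr2d and Sprr2e were 88% identical, Sprr2h and Sprr2k 63.2%, and Sprr2d and Sprr2f 34.4%. The Sprr2 promoters with a motif are thus not independent cases, and their share cannot be read as enrichment over all promoters. The runs of Sprr2a1, Sprr2a2 and Sprr2a3 held neither motif, but their RefSeq starts lie 36 bases downstream, 34727 bases downstream and 113 bases upstream of the GENCODE starts, so these windows need not be the sequence before the starts of the GENCODE genes. The antioxidant response motif TGANNNNGC, which can overlap TGANTCA, stood in 5 of 10 Sprr2, 4 of 6 Lce3 and 3 of 13 Lce1 promoters, against 35.2% of all. GGGCGG, a GC box letter string bound by SP and KLF factors, stood in 2 of 44 member promoters (4.55%) against 32.7% of all, and CCACCC in 10 of 44 (22.7%) against 28.1%. Sprr2h, which was not called in any comparison, has the AP-1 and TATA strings that Sprr2b, Sprr2d and Sprr2i have, and these matches describe letters and not bound sites.

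Against wildtype, Lce3 and Sprr2 genes were the members called higher in Sp6 cKO, where 12 of 46 measured members (26.1%) were higher against 2.23% of all 16877 genes compared, and 5 (10.9%) were lower against 2.16%. Of the 12 higher members 8 had under 1 CPM in wildtype and entered the comparison only through their level in Sp6 cKO, so the count leans towards higher calls. In Sp8 cKO 5 of 42 measured members (11.9%, against 2.26% of all genes) were higher, each with under 1 CPM in wildtype, and 0 were lower (1.55%). In Sp6+Sp8 cKO 10 of 43 (23.3%, against 2.84%) were higher, 6 of them from under 1 CPM in wildtype, and 5 (11.6%, against 2.94%) were lower. The median log2 ratio of the measured members was 0.04, -0.15 and -0.54 in the Sp6, Sp8 and double knockouts, and that of all genes compared was -0.01, -0.01 and -0.02. These 3 comparisons share the wildtype library.

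Within batch 1, 8 of 46 measured members (17.4%) were higher in Sp6 cKO than in Sp8 cKO, against 1.35% of all genes, and 2 (4.35%) were lower, against 1.76%. In Sp6+Sp8 cKO against Sp6 cKO 1 member of 46 was higher (2.17%, against 1.89%) and 7 were lower (15.2%, against 2.07%). In Sp6+Sp8 cKO against Sp8 cKO 5 of 43 were higher (11.6%, against 1.88%) and 6 were lower (14%, against 2.79%). Here too some members entered only through the library where they were high: the lower library was under 1 CPM for 3 of the 8 higher in Sp6 cKO, for 2 of the 7 lower and for 1 of the 5 higher in the double knockout. In all 20 members were called in at least 1 of the 6 comparisons, which share libraries, and 28 in none, where 12.2% of the 17325 genes compared in at least 1 were called.

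**Figure D1:**
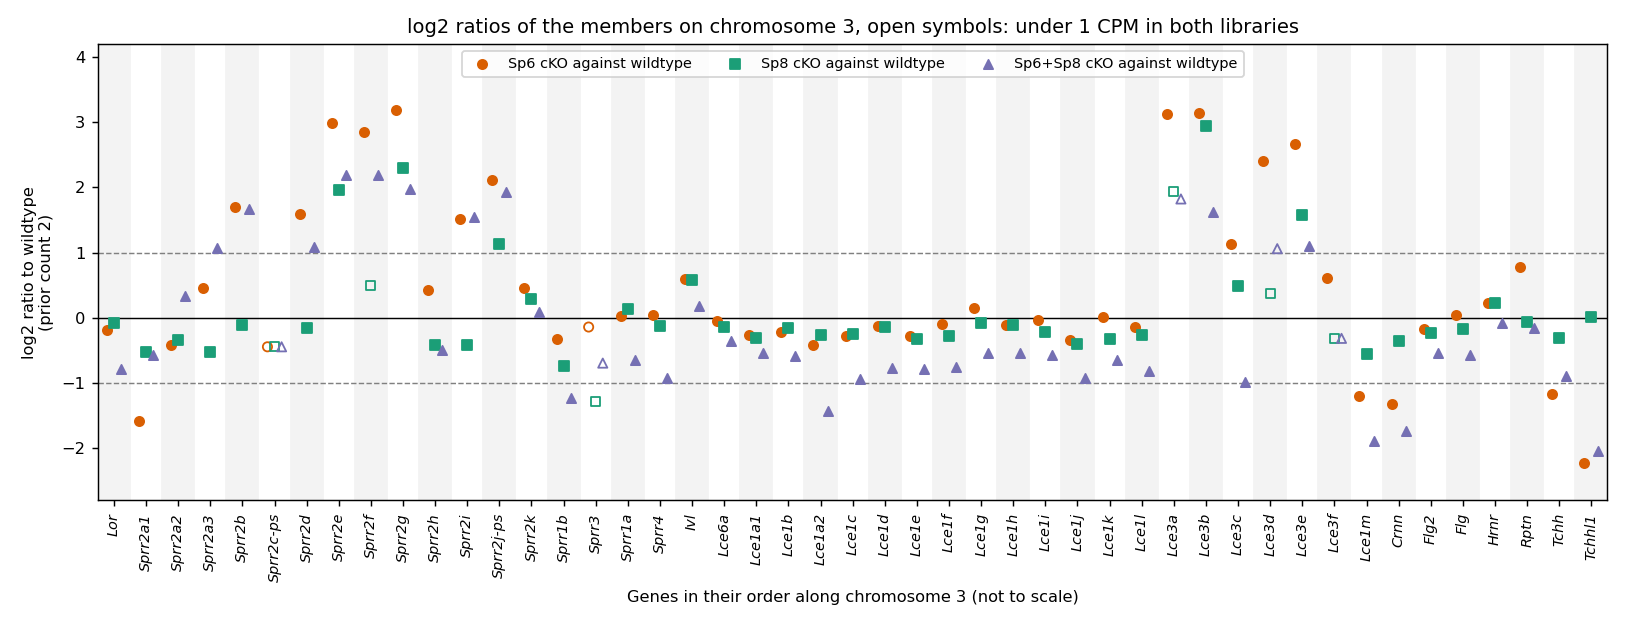
log2 ratio to wildtype (vertical axis, prior count 2) of the 47 members on chromosome 3, placed in chromosomal order on the horizontal axis and not to scale, with circles for Sp6 cKO, squares for Sp8 cKO and triangles for Sp6+Sp8 cKO, open where both libraries were under 1 CPM and dashed lines at 1 and -1. The Sprr2 block and the Lce3 block hold the symbols above 1, the Lce1 run from Lce1a1 to Lce1l lies between -1.42 and 0.15, and Lce1m, Crnn and Tchhl1 lie below -1 in Sp6 cKO and Sp6+Sp8 cKO.

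Lce1 genes encode LCE proteins of normal epidermis and were lowest in the double knockout. Summed over 14 genes they stood at 3313 CPM in wildtype and 2954, 2831 and 1999 in the Sp6, Sp8 and double knockouts. The sum was lowest in the double knockout library, at a log2 ratio to wildtype of -0.73, and the ratios of Sp6 cKO and Sp8 cKO were -0.17 and -0.23. Relative to the suprabasal keratins Krt1 and Krt10, which themselves stood at 15435 CPM in wildtype and 15285, 12064 and 11342 CPM in the cKO libraries, these ratios were -0.28 for Sp6+Sp8 cKO, -0.15 for Sp6 cKO and 0.13 for Sp8 cKO, so the sign in Sp8 cKO depended on the scaling. In bulk tissue, fewer differentiating cells and less RNA per cell cannot be told apart.

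The 13 Lce1 genes apart from Lce1m had log2 ratios between -0.42 and 0.15 in Sp6 cKO, between -0.40 and -0.08 in Sp8 cKO and between -1.42 and -0.53 in Sp6+Sp8 cKO. All 14 were below 0 in Sp6+Sp8 cKO on the TMM scale, although 2 were called lower. Lce1a1, the most abundant, was at 414.7, 346.3, 335.2 and 284.4 CPM. Lce1a2 was at 243.8, 182.3, 203.3 and 90.8 CPM, which put Sp6+Sp8 cKO apart from the other libraries, 2.69-fold below wildtype (95% interval 2.53 to 2.85) and 2.24-fold below Sp8 cKO (2.10 to 2.39). It was 2.01-fold below Sp6 cKO (1.88 to 2.15), a call at the edge of the size rule. Relative to Krt1 and Krt10 its log2 ratios were -0.98 to wildtype and -0.57 to Sp6 cKO, both within the rule. Lce1a2 took 7.36% of the Lce1 counts in wildtype and 4.54% in Sp6+Sp8 cKO, where Lce1a1 took 14.2% against 12.52%.

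Lce1m lies apart from the other Lce1 genes, beyond the Lce3 block, at 93017810 to 93019060. It was at 21.9 CPM in wildtype and 9.46, 14.9 and 5.85 in the Sp6, Sp8 and double knockouts. It was 2.31-fold lower than wildtype in Sp6 cKO (95% interval 1.89 to 2.85) and 3.74-fold lower in Sp6+Sp8 cKO (2.98 to 4.74), and within batch 1 it was 2.55-fold lower in Sp6+Sp8 cKO than in Sp8 cKO (1.97 to 3.32). Both libraries with an Sp6 deletion were thus below the other pair, but Sp6 cKO against Sp8 cKO, at a log2 ratio of -0.65, was within the size rule. Lce6a, an LCE gene of another branch, was at 20.5, 19.7, 18.6 and 15.99 CPM and was called in no comparison.

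Lce3 genes encode LCE proteins that are scarce in intact epidermis. The 6 genes summed to 11.9 CPM in wildtype and 37.0, 22.1 and 10.4 in the Sp6, Sp8 and double knockouts. The Sp6 cKO sum was 3.12-fold above wildtype (95% interval 2.67 to 3.64), the Sp8 cKO sum lay below the size rule at a log2 ratio of 0.89, and the Sp6+Sp8 cKO sum at -0.19. Within batch 1 the double knockout library was 3.56-fold below Sp6 cKO (2.97 to 4.28) and 2.12-fold below Sp8 cKO (1.74 to 2.59). Relative to Krt1 and Krt10 the ratio of Sp8 cKO to wildtype was 1.24, past the size rule, that of Sp6+Sp8 cKO to wildtype 0.25, and that of Sp6+Sp8 cKO to Sp8 cKO -0.99, just within it.

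Lce3c was the most abundant Lce3 gene, at 9.24 CPM in wildtype and 20.5, 13.02 and 4.61 in the Sp6, Sp8 and double knockouts. It was 2.21-fold higher in Sp6 cKO than in wildtype (95% interval 1.84 to 2.67) and 4.44-fold lower in the double knockout than in Sp6 cKO (3.40 to 5.85). Lce3b was at 0.460, 5.04, 4.37 and 1.69 CPM, from 10, 65, 55 and 26 counts. All 3 cKO libraries were above wildtype for it, 10.96-fold in Sp6 cKO (5.59 to 23.9), 9.49-fold in Sp8 cKO (4.79 to 20.9) and 3.67-fold in Sp6+Sp8 cKO (1.71 to 8.54). Lce3e was at 0.874, 6.20, 2.86 and 2.01 CPM, from 19, 80, 36 and 31 counts, with log2 ratios to wildtype of 2.66, 1.58 and 1.10 in the cKO libraries.

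Wildtype counts of 20 or fewer make the folds of Lce3b and Lce3e imprecise, and the other Lce3 genes were near the limit of measurement. Lce3a had 2, 23, 9 and 10 counts, and was 19.4-fold higher in Sp6 cKO than in wildtype with a 95% interval of 4.79 to 170. Lce3d had 6, 26, 5 and 11 counts and Lce3f 20, 19, 9 and 11, of which Lce3d was called higher in Sp6 cKO and Lce3f in no comparison. Windows of 150 bases, the read length, were in part identical between Lce3c, Lce3d, Lce3e and Lce3f, for 15.1%, 3.22%, 29.5% and 36.8% of each transcript, so the split of counts among these 4 genes is uncertain while the Lce3 sum is not affected by it. Lce3a and Lce3b shared no such window. The composition of the sum differed between libraries, with Lce3c at 77.9% of Lce3 counts in wildtype and 55.3%, 59.0% and 44.4% in the cKO libraries.

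Sprr1 genes encode SPRR proteins that bridge other envelope proteins. They summed to 551 CPM in wildtype and 470.9, 403.6 and 265.9 in the Sp6, Sp8 and double knockouts, and the double knockout was 2.07-fold below wildtype (95% interval 2.00 to 2.15). Sprr1b was at 404.2, 321.4, 242.0 and 172.0 CPM, 2.35-fold below wildtype in Sp6+Sp8 cKO (2.25 to 2.46). Relative to Krt1 and Krt10 the Sprr1 sum in Sp6+Sp8 cKO was at -0.61 and Sprr1b at -0.79, within the size rule. Sprr1a was at 146.8, 149.6, 161.6 and 94.0 CPM and was called in no comparison.

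**Figure D2:**
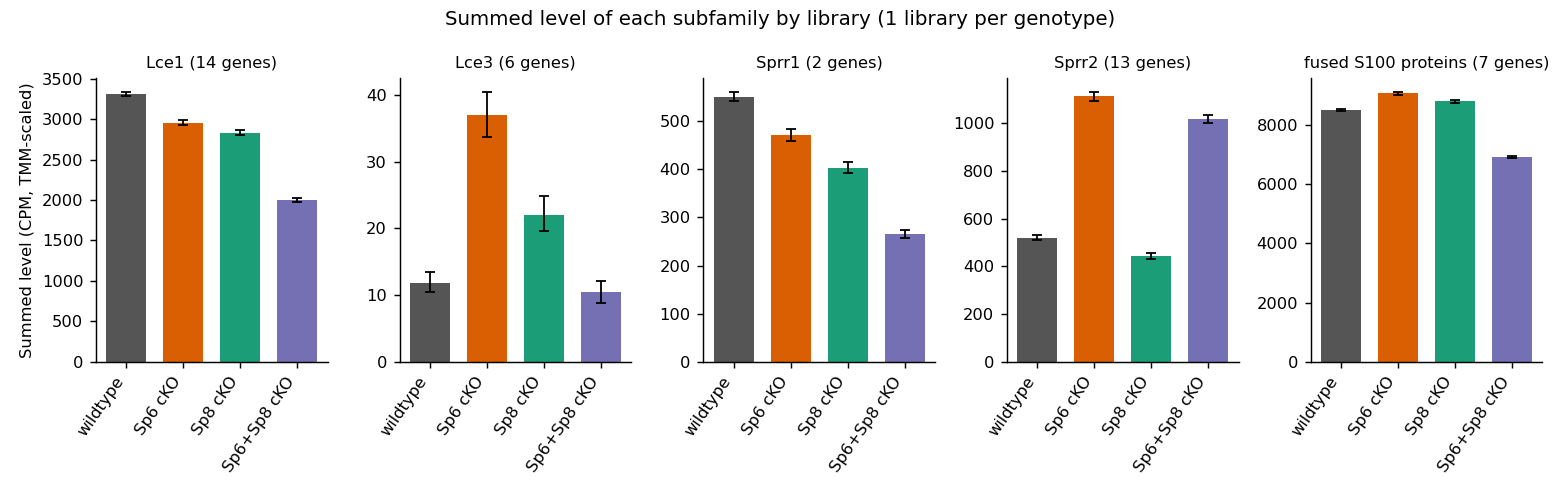
Summed level in CPM (vertical axes from 0, a scale of its own in each panel) of the Lce1, Lce3, Sprr1, Sprr2 and fused S100 genes in the 4 libraries, with bars for the sums and error bars for exact 95% Poisson intervals, which cover counting error only. Lce3 is highest in Sp6 cKO at 37.0 CPM, Sprr2 stands at 1113 CPM in Sp6 cKO and 1017 CPM in Sp6+Sp8 cKO against 520.7 in wildtype and 442.9 in Sp8 cKO, and Lce1 and Sprr1 are lowest in Sp6+Sp8 cKO.

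Sprr2 genes encode SPRR proteins of stressed and internal epithelia. The 13 genes summed to 520.7 CPM in wildtype and 1113, 442.9 and 1017 in the Sp6, Sp8 and double knockouts. The 2 libraries with an Sp6 deletion stood above the other pair. The sum was 2.14-fold above wildtype in Sp6 cKO (95% interval 2.09 to 2.19), and in Sp6+Sp8 cKO the log2 ratio of 0.97 lay just below the size rule. Within batch 1 it was 2.51-fold above Sp8 cKO in Sp6 cKO (2.44 to 2.59) and 2.30-fold in Sp6+Sp8 cKO (2.23 to 2.37), and in Sp8 cKO the ratio to wildtype was -0.23, or 0.12 relative to Krt1 and Krt10. On that scale the log2 ratio of Sp6 cKO to Sp8 cKO was 0.99, just within the size rule, and that of Sp6+Sp8 cKO to wildtype 1.41, past it. In the same libraries 1 Sprr1 count was accompanied by 0.945 Sprr2 counts in wildtype and 2.36, 1.10 and 3.82 in the Sp6, Sp8 and double knockouts, a ratio within each library that needs no scaling.

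Sprr2b, the most abundant Sprr2 gene, was at 172.2 CPM in wildtype and 562, 160.3 and 548.8 in the Sp6, Sp8 and double knockouts. It was 3.26-fold above wildtype in Sp6 cKO (95% interval 3.14 to 3.40) and 3.19-fold in Sp6+Sp8 cKO (3.07 to 3.31), and its share of Sprr2 counts was 33.1%, 50.5%, 36.2% and 54.0%. Sprr2d was at 77.0, 232.2, 69.5 and 164.5 CPM, 3.01-fold above wildtype in Sp6 cKO (2.84 to 3.20) and 2.14-fold in Sp6+Sp8 cKO (2.01 to 2.27). Sprr2i was at 10.3, 29.7, 7.70 and 30.4 CPM, 2.87-fold (2.43 to 3.40) and 2.94-fold (2.502 to 3.46) above wildtype. For these 3 genes wildtype and Sp8 cKO were close, with log2 ratios of -0.10, -0.15 and -0.42, and within batch 1 Sp6 cKO was at 1.81, 1.74 and 1.93 against Sp8 cKO and Sp6+Sp8 cKO at 1.77, 1.24 and 1.96.

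Not all Sprr2 genes shared this pattern. Sprr2h, among the 4 most abundant, was at 124.2, 167.4, 92.7 and 88.4 CPM, with log2 ratios to wildtype of 0.43, -0.42 and -0.49. Sprr2k was at 1.15, 1.63, 1.43 and 1.23 CPM. Sprr2e, Sprr2f, Sprr2g and Sprr2j-ps were all under 1 CPM in wildtype, from 9, 9, 9 and 15 counts, and were called higher in Sp6 cKO, at log2 ratios of 2.99, 2.86, 3.19 and 2.11, and in Sp6+Sp8 cKO, at 2.19, 2.19, 1.98 and 1.93. In Sp8 cKO 3 of these 4 were higher as well, Sprr2e at 1.96, Sprr2g at 2.30 and Sprr2j-ps at 1.13. Sprr2f, with 8 counts in Sp8 cKO, was under 1 CPM there and in wildtype. Within batch 1 Sprr2f was higher than Sp8 cKO in Sp6 cKO (2.36) and Sp6+Sp8 cKO (1.69), as were Sprr2b, Sprr2d and Sprr2i. Sprr2e was higher than Sp8 cKO in Sp6 cKO alone (1.03), and Sprr2g and Sprr2j-ps in neither library.

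Sprr2a1, Sprr2a2 and Sprr2a3 are close copies, with 89.6%, 89.0% and 19.0% of their 150-base windows found in another gene, and the annotated spans of Sprr2a1 and Sprr2a2 overlap. Their sum was 133.8 CPM in wildtype and 104.0, 104.4 and 173.8 in the Sp6, Sp8 and double knockouts, and it was called in no comparison. Singly, Sprr2a1 was at 4.19, 1.32, 2.86 and 2.79 CPM and was called lower in Sp6 cKO, a call that depends on how shared reads were divided. Sprr2a3 was at 8.42, 11.6, 5.80 and 17.9 CPM and was called higher in Sp6+Sp8 cKO. Most windows of Sprr2a3 occur in no other gene, and how far the division of shared reads affected its call was not tested. Without the 3 copies, a sum chosen after seeing the data, Sprr2 was 2.61-fold above wildtype in Sp6 cKO (95% interval 2.54 to 2.68) and 2.18-fold in Sp6+Sp8 cKO (2.12 to 2.24). The other Sprr2 genes had 2.89 counts for each Sprr2a count in wildtype and 9.71, 3.24 and 4.85 in the Sp6, Sp8 and double knockouts. Sprr4, a lone SPRR gene, was at 3.82, 3.95, 3.49 and 1.95 CPM and was called in no comparison.

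**Figure D3:**
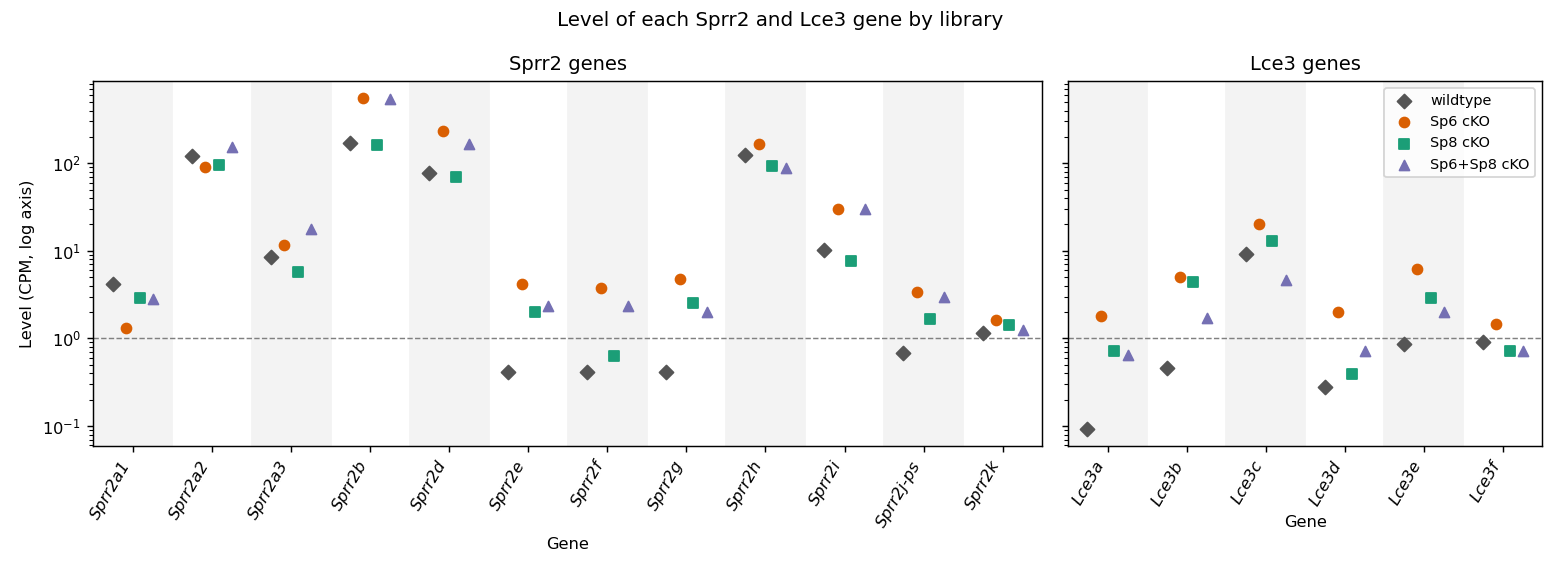
Level in CPM (vertical log axis) of 12 Sprr2 genes and 6 Lce3 genes in chromosomal order, with a diamond for wildtype, a circle for Sp6 cKO, a square for Sp8 cKO, a triangle for Sp6+Sp8 cKO and a dashed line at 1 CPM. Sprr2c-ps is not drawn. For Sprr2b, Sprr2d and Sprr2i the circle and triangle lie above the diamond and square, whereas for Lce3b and Lce3c the circle and square lie above the triangle.

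The difference between Lce3 and Lce1 can be read inside each library. There were 3.58 Lce3 counts per 1000 Lce1 counts in wildtype (95% interval 3.16 to 4.05) and 12.52 (11.4 to 13.7), 7.80 (6.90 to 8.77) and 5.20 (4.42 to 6.07) in the Sp6, Sp8 and double knockouts. All 3 cKO libraries were above wildtype in this ratio, beyond counting error, although the Sp6+Sp8 cKO library had the lowest summed Lce3 CPM. Per 1000 counts of Krt1 and Krt10, Lce3 had 0.769, 2.42, 1.83 and 0.917 counts and Sprr2 33.7, 72.8, 36.7 and 89.6. Sprr1 had 35.7, 30.8, 33.5 and 23.4, and Lce1 214.6, 193.3, 234.7 and 176.3.

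**Figure D4:**
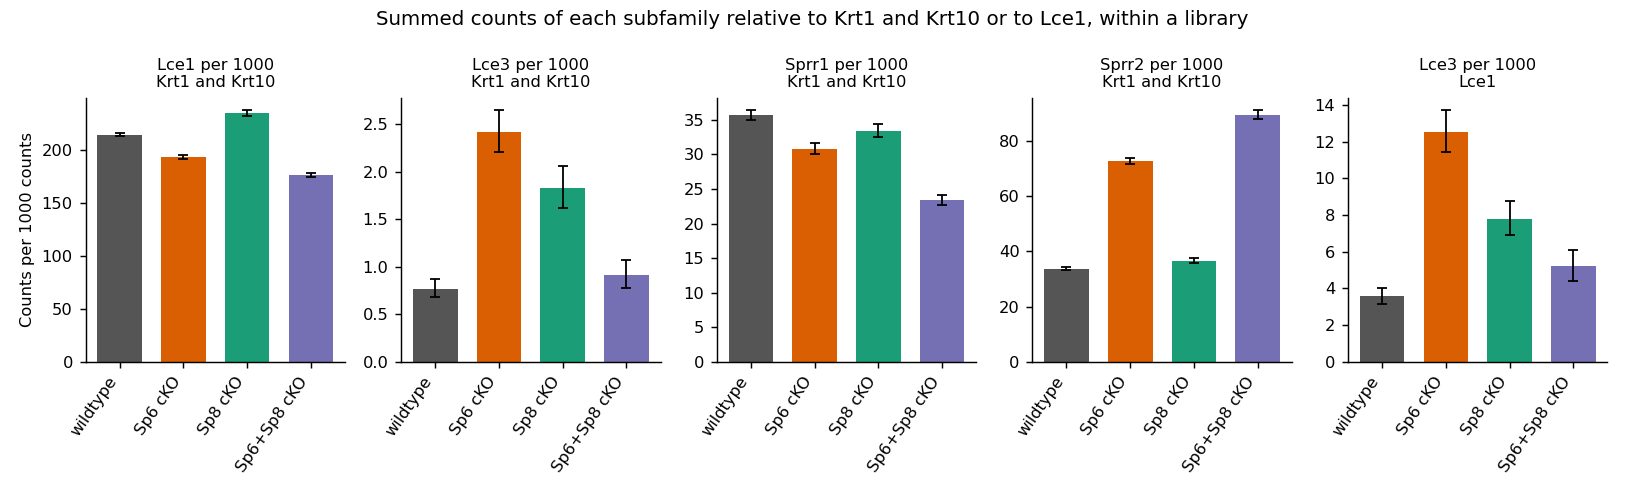
Counts of Lce1, Lce3, Sprr1 and Sprr2 per 1000 counts of Krt1 and Krt10, and of Lce3 per 1000 counts of Lce1 (vertical axes from 0, a scale of its own in each panel), in the 4 libraries, with bars for the ratio and error bars for exact 95% intervals that cover counting error only. Sprr2 is higher in Sp6 cKO and Sp6+Sp8 cKO, at 72.8 and 89.6, than in wildtype and Sp8 cKO, at 33.7 and 36.7, and the ratio of Lce3 to Lce1 is highest in Sp6 cKO at 12.52.

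Markers of wound keratinocytes were in part higher in the cKO libraries, in an order of libraries other than that of the Lce3 or Sprr2 sums. Of 6 such markers S100a8 and S100a9, the calprotectin subunits, which lie in the same gene complex, were higher than wildtype in each cKO library and none was lower. The shares of all genes called higher were 2.23%, 2.26% and 2.84% in the Sp6, Sp8 and double knockouts. S100a8 was at 8.83 CPM in wildtype and 50.2, 30.65 and 69.1 in the Sp6, Sp8 and double knockouts. It was thus highest in the double knockout, where the Lce3 sum was lowest at 10.4 CPM. In Sp8 cKO, where S100a8 was above wildtype, the Sprr2 sum was below it, at 442.9 against 520.7 CPM. The keratins Krt6a, Krt6b, Krt16 and Krt17 had log2 ratios to wildtype between -0.34 and 0.47, and the list summed to 2234, 2606, 2470 and 2007 CPM with no marker at 0. Of 7 measured neutrophil markers none was called higher than wildtype in any cKO library. In the Sp6, Sp8 and double knockouts 0, 1 and 2 were lower, against 2.16%, 1.55% and 2.94% of all genes. The neutrophil list summed to 49.5, 47.3, 44.2 and 36.1 CPM. Ly6g, under 1 CPM throughout, was at 8, 1, 5 and 0 counts, whereas Cxcr2 was at 6.53, 9.61, 5.00 and 9.29 CPM. The part of these cells in the Lce3 and Sprr2 values was not tested.

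Of the fused S100 genes, Hrnr, Flg, Flg2 and Rptn were within the size rule throughout and Tchh, Tchhl1 and Crnn were lower in Sp6 cKO than in wildtype. Together the 7 genes summed to 8503 CPM in wildtype and 9062, 8799 and 6917 in the Sp6, Sp8 and double knockouts. The log2 ratio of the sum in Sp6+Sp8 cKO was -0.30, or 0.15 relative to Krt1 and Krt10. Hrnr (hornerin) and Flg (filaggrin), whose product bundles keratin and yields natural moisturising factor, made up most of it. Hrnr was at 4602, 5366, 5388 and 4355 CPM and Flg at 2702, 2788, 2396 and 1816 CPM, and neither was called in any comparison. The 8 Flg identifiers differed among themselves, and the one with the most counts had 44201 of them in wildtype, so single identifiers were not interpreted. Flg2, a filaggrin relative, was at 256.5, 228.5, 219.4 and 176.9 CPM, and Rptn (repetin) at 210.9, 362.7, 202.4 and 189.8 CPM, with a log2 ratio of 0.78 in Sp6 cKO.

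Trichohyalin (Tchh), which stiffens the inner root sheath of the hair and parts of the nail, was at 676.6 CPM in wildtype and 299.9, 544.2 and 364.1 in the Sp6, Sp8 and double knockouts. It was 2.26-fold below wildtype in Sp6 cKO (95% interval 2.18 to 2.34), and its log2 ratio in Sp6+Sp8 cKO was -0.89. Tchhl1, a trichohyalin-like gene, was at 28.9, 6.05, 29.1 and 6.95 CPM, so the 2 libraries with an Sp6 deletion lay well below the other pair. It was 4.78-fold below wildtype in Sp6 cKO (3.77 to 6.12) and 4.15-fold in Sp6+Sp8 cKO (3.38 to 5.15), and within batch 1 it was 4.805-fold (3.75 to 6.22) and 4.18-fold (3.36 to 5.23) below Sp8 cKO. Crnn (cornulin), a fused S100 gene of squamous epithelia, was at 25.9, 10.3, 20.2 and 7.73 CPM, 2.52-fold (2.08 to 3.06) and 3.35-fold (2.75 to 4.12) below wildtype in Sp6 cKO and Sp6+Sp8 cKO. Within batch 1, Tchh and Crnn were within the size rule in Sp6 cKO against Sp8 cKO. Their calls in Sp6 cKO thus rest on the wildtype library, which is of another batch. In Sp6+Sp8 cKO against Sp8 cKO Crnn was lower and Tchh was within the rule.

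Inner root sheath keratins were in part lower beside Tchh and Tchhl1. Of 8 such keratins 3, 0 and 2 were lower than wildtype in the Sp6, Sp8 and double knockouts, with 0 higher in each. The shares of all genes called lower were 2.16%, 1.55% and 2.94%. Krt26 was at 28.4, 6.36, 39.5 and 9.16 CPM and Krt72 at 27.9, 4.42, 31.0 and 8.06 CPM, so as for Tchhl1 both libraries with an Sp6 deletion lay below the other pair. The list summed to 1494 CPM in wildtype and 1050, 1513 and 1245 in the Sp6, Sp8 and double knockouts with no marker at 0. The abundant Krt25 and Krt71 had log2 ratios of -0.30 and -0.43 in Sp6 cKO. Hair and nail cortex keratins had another order, at 4998, 5288, 5843 and 2623 CPM in sum, with 2 of 7 lower than wildtype in Sp6+Sp8 cKO. The part of the inner root sheath in the values of Tchh, Tchhl1 and Crnn was not tested.

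**Figure D5:**
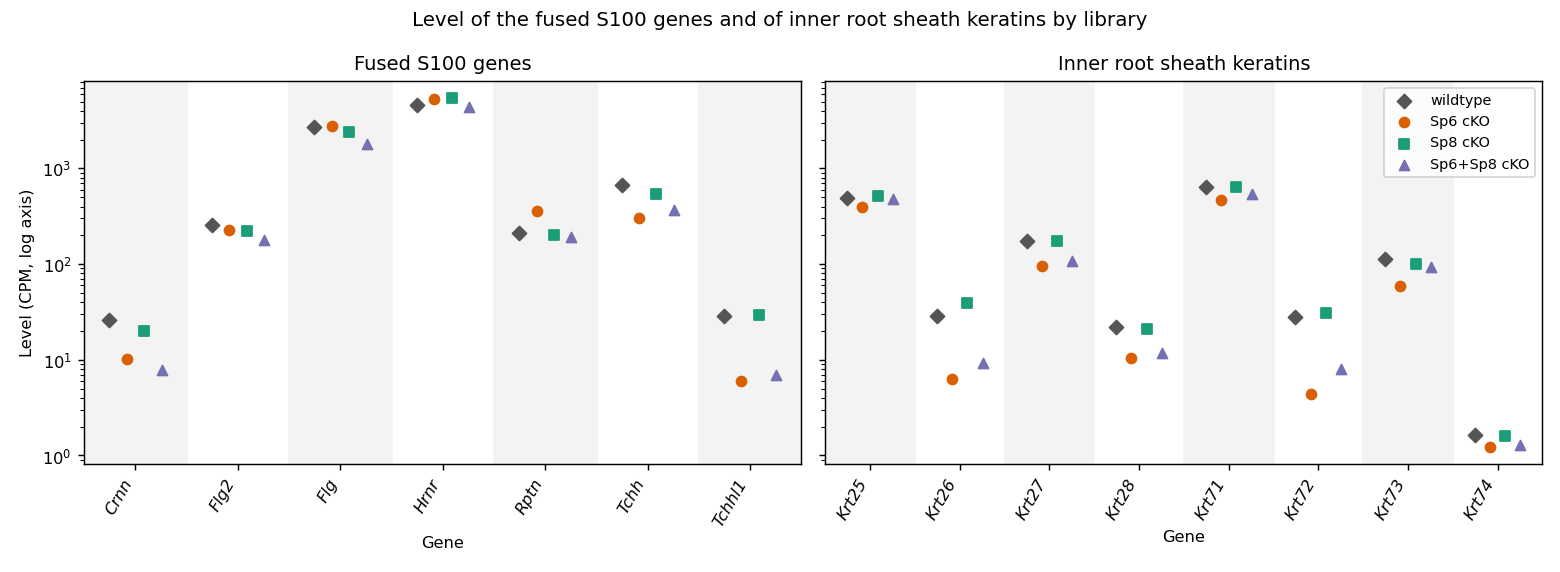
Level in CPM (vertical log axis) of the 7 fused S100 genes, left, and 8 inner root sheath keratins, right, with a diamond for wildtype, a circle for Sp6 cKO, a square for Sp8 cKO and a triangle for Sp6+Sp8 cKO. Tchhl1, Krt26 and Krt72 show the circle and triangle well below the diamond and square, while Hrnr stays between 4355 and 5388 CPM.

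The single-gene members were within the size rule in all 6 comparisons. Lor (loricrin), a main envelope protein, was at 351.0 CPM in wildtype and 309.8, 331.6 and 203.6 in the Sp6, Sp8 and double knockouts, with a log2 ratio of -0.79 in the last. Ivl (involucrin), an early scaffold of the envelope, was at 24.2, 36.7, 36.2 and 27.5 CPM. Cnfn (cornifelin), an envelope component encoded outside the complex, was at 167.3, 180.9, 153.2 and 163.8 CPM.

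Members differed widely in level per length of exon. In wildtype Lce1a1 stood at 588 CPM per kilobase, Lce1b at 561, Sprr1b at 487, Hrnr at 411, Cnfn at 233, Sprr2b at 220, Lor at 197 and Tchh at 116. Lce3c stood at 16.3, Ivl at 12.6 and Lce3b at 0.818 CPM per kilobase. In Sp6 cKO Sprr2b reached 717 and Lce3b 8.97 CPM per kilobase, so on this scale Sprr2b was above Lce1a1 (491) in that library whereas Lce3b remained far below it.

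The other genes of envelope assembly were mostly within the size rule. The transglutaminase genes Tgm1, Tgm2, Tgm3, Tgm5 and Tgm6 were called in none of the 6 comparisons. Nor was Sult2b1, an enzyme gene listed with them that is not a transglutaminase. Tgm1, the main epidermal transglutaminase, was at 171.2, 143.0, 144.5 and 108.5 CPM. Of 17 other envelope proteins 0 were called against wildtype in Sp6 cKO and Sp8 cKO and 1 in Sp6+Sp8 cKO, where 2.94% of all genes were lower. It was Krtdap, a secreted keratinocyte peptide, at 564.4, 587.2, 595.7 and 271.1 CPM. Krtdap was also the gene of this list called within batch 1, lower in the double knockout than in Sp6 cKO (-1.11) and Sp8 cKO (-1.14). The list median in Sp6+Sp8 cKO was -0.49, with 16 of 17 genes below 0 on the TMM scale, against -0.02 for all genes compared.

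Of 19 measured genes of filaggrin processing and desquamation, 1 was higher and 2 lower than wildtype in Sp6 cKO, and 0 were higher and 1 lower in each of the other cKO libraries. Among all genes compared 2.23%, 2.26% and 2.84% were higher and 2.16%, 1.55% and 2.94% lower in the Sp6, Sp8 and double knockouts. Klk6, a kallikrein protease, was higher in Sp6 cKO at a log2 ratio of 1.49, and Padi1 and Padi4, peptidylarginine deiminases, were lower at -1.04 and -1.02. Padi4 was also lower in Sp8 cKO, at -1.05, and the protease inhibitor gene Spink6 was lower in Sp6+Sp8 cKO, at -1.16. Within batch 1 Klk14 and Klk6 were higher in Sp6 cKO than in Sp8 cKO, at 1.37 and 1.05. In the double knockout Klk14 was lower than in Sp6 cKO, at -1.05, and Spink6 lower than in Sp8 cKO, at -1.17. Of 19 measured other genes of the complex, 2 were higher in each cKO library, S100a8 and S100a9, and 1 was lower in Sp6 cKO, S100a3, a hair cuticle S100 protein, at -1.01. In Sp6+Sp8 cKO 1 was lower, Prr9, a proline-rich protein gene, at -1.43. Within batch 1 Pglyrp4, a peptidoglycan recognition protein gene, was higher (1.23) and S100a3 lower (-1.19) in Sp6 cKO than in Sp8 cKO. In the double knockout Prr9 was lower than in Sp6 cKO (-1.16) and Sp8 cKO (-1.34), and S100a8 and S100a9 were higher than in Sp8 cKO (1.17 and 1.11). Of 30 transcription factors of terminal differentiation only Fosl1, an AP-1 subunit, was called, at 4.001, 3.57, 3.89 and 10.7 CPM, higher in Sp6+Sp8 cKO than in each other library. Against wildtype, Sp6 cKO and Sp8 cKO, 2.84%, 1.89% and 1.88% of all genes were higher in Sp6+Sp8 cKO.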

How the data were processed

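Gene counts were measured in 4 libraries of mouse digit tips, 1 per genotype. The values deposited by the authors are estimated counts, unscaled and summed per gene, and the submitters' processing notes name Salmon, STAR, featureCounts, edgeR, deepTools and Trim Galore 0.6.4, without roles, and build GRCm38. Between 84.6% and 87.1% of the deposited values per library were whole. A further column that matches no listed sample (1) was not used.

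Counts were rounded after the 8 Flg rows were summed. Library sizes were scaled with TMM (edgeR 4.0.16, R 4.3.3), and log2 ratios used a prior count of 2. Intervals are conditional on the sum of both counts (scipy 1.17.1) and may be too narrow, since PCR copies are not independent molecules. At these depths 3 counts correspond to between 0.138 and 0.238 CPM. Gene positions, exon lengths and shared windows came from GENCODE M21, which held 98.8% of identifiers. The size rule was tested on simulated data.

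The members and lists were chosen with earlier results of these data known. Genes described singly are members called in a comparison whose higher library reached 5 CPM, the most abundant of each subfamily, and Lor, Ivl and Cnfn, while the rest appear by counts. Protein sequences were not used here. Alternatives were DESeq2 1.42.0 size factors, library totals, Krt1 plus Krt10 as library size, a prior count of 0.5, CPM minimums of 5 or none, and, added after seeing the data, leaving out members with shared windows.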

Additional observations from a re-analysis of the deposited data

How the results depend on the processing

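DESeq2 size factors, library totals, a prior count of 0.5 and no CPM minimum left all 42 counts of members and subfamily sums with the same call or within 1.5 times, and of the 37 calls of single genes only Lce1a2 in Sp6+Sp8 cKO against Sp6 cKO was lost, just within the size rule with DESeq2 factors and at -0.96 with totals. With Krt1 and Krt10 as library size, which moved the median of all genes by up to 0.42, 4 of the 37 calls were lost and none reversed. Against wildtype the Lce1, Lce3 and Sprr2 sums in Sp8 cKO became 0.13, 1.24 and 0.12, the Lce3, Sprr1, Sprr2 and fused S100 sums in Sp6+Sp8 cKO 0.25, -0.61, 1.41 and 0.15, and 3 members were lower there. In Sp6 cKO against Sp8 cKO the Lce1, Sprr1, Sprr2 and fused S100 sums became -0.28, -0.12, 0.99 and -0.30, with 5 members higher and 4 lower. In Sp6+Sp8 cKO the Sprr2 and fused S100 sums against Sp6 cKO became 0.30 and 0.0407, with 3 members higher and 3 lower, and the Lce3 sum against Sp8 cKO -0.99. Shares over all genes were not computed on the Krt1 and Krt10 scale, so these counts of members cannot be set beside the earlier shares. On the TMM scale Krt1 and Krt10 themselves differed between libraries, and which of the scalings is right was not tested.

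A CPM minimum of 5, which tests fewer genes, left 6, 0 and 4 members higher than wildtype in the Sp6, Sp8 and double knockouts. It left 4 higher and 1 lower in Sp6 cKO against Sp8 cKO, and 0 higher and 4 lower in Sp6+Sp8 cKO against Sp6 cKO. The 5 members called higher in Sp8 cKO by the main rule reached at most 4.37 CPM there. Shares over all genes were not computed at this minimum, so these counts cannot be set beside the earlier shares. In 2 alternatives added after seeing the data, leaving out the 7 members that share windows left 1 lower in Sp6 cKO against Sp8 cKO, and 0 higher and 4 lower in Sp6+Sp8 cKO against Sp6 cKO, and without Sprr2a1, Sprr2a2 and Sprr2a3 the Sprr2 sum in Sp6+Sp8 cKO passed the rule against wildtype, at 1.12. Shares of measured members were not computed without the 7 members that share windows. Among all genes, 1.76% were lower in Sp6 cKO against Sp8 cKO, and 1.89% were higher and 2.07% lower in Sp6+Sp8 cKO against Sp6 cKO. No paired analysis was possible because each group had 1 library, and no library could be left out. Depth limited Lce3a, Lce3b, Lce3d, Lce3e, Lce3f, Sprr2e, Sprr2f, Sprr2g and Sprr2j-ps, with 2 to 20 counts in wildtype.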
